A study of Mus musculus with 94 samples.

Results

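L1MC4_dup2661 and HAL1_SS_dup70 are 2 single copies of L1 (LINE-1) retrotransposons among the 430083 L1 elements counted in the brain of wild-type (WT) and trisomic Ts65Dn (TS) mice. Both were selected on these same counts, because each was the copy behind a higher level of its subfamily (L1MC4 or HAL1_SS) in trisomic mice. Differences between TS and WT mice are therefore given as a description, without a test. Effects of treatment, the difference between tissues and the agreement between tissues of a mouse were tested, although the treatment comparisons use the same groups as the genotype comparisons.

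The libraries were made from total RNA of cortex and hippocampus of male Ts65Dn mice and WT littermates, with an age of 3–4 months in the labels. Treatment lasted several months per the methods, and whether the age is that at the start or the end of treatment is not stated. The mice came from B6EiC4Sn.BLiA-Ts(1716)65Dn/DnJ females crossed with B6C3F1/OlaHsd hybrid males, and TS mice carry an additional copy of segments of MMU16 and MMU17. Treated mice (WT-t, TS-t) received lamivudine, an inhibitor of reverse transcriptase, at 3 mg/kg in drinking water, and non-treated mice (WT-nt, TS-nt) received water. Among cortex libraries, 9 and 17 came from WT-nt and WT-t and 9 and 13 from TS-nt and TS-t mice, and the corresponding hippocampus libraries numbered 8, 17, 8 and 13. Of the 48 mice, 46 had a library of both tissues. The extra segments are inherited and not limited to a cell type, and whole tissue was compared. Fewer cells of a type and less RNA per cell cannot be told apart in such samples. Only counts on L1 elements were used, so the tissue labels could not be compared with marker genes.

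L1s are retrotransposons that copy themselves through an RNA intermediate, with an RNA-binding protein from the first open reading frame and a protein with endonuclease and reverse transcriptase activity from the second. Most copies in the mouse genome are old, truncated and unable to move. L1MC4 is an old mammalian L1 subfamily, and HAL1 elements are old L1 relatives that lack the second open reading frame. RNA counted on such a copy can come from a longer transcript in which the copy is embedded.

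L1MC4_dup2661 lies within such a transcript. It is found at chr9:46921094-46921851 of GRCm38 on the plus strand, which is 758 bp long with 38.1% GC, outside of the trisomic segments. The whole element is inside exon 2 of the long intergenic non-coding RNA 2900052N01Rik (ENSMUSG00000099696.6, chr9:46913493-46927366, plus strand) in its transcripts 2900052N01Rik-202 and 2900052N01Rik-203. In transcript 2900052N01Rik-201, exon 2 ends within the element at position 46921746, and 653 of the 758 bp are exonic. The nearest other genes were Gm47153, at 38384 bp, and Gm4791, at 76890 bp. Reads of the element and reads of 2900052N01Rik cannot be told apart in these counts. The last 300 bases of the element (chr9:46921552-46921851, plus strand, from the GENCODE transcript sequence of the same build) are shown because the exon of 2900052N01Rik-201 ends within them. The capitals mark the 2 bases that follow the exon end, GT, the letters at which introns usually begin.
L1MC4_dup2661: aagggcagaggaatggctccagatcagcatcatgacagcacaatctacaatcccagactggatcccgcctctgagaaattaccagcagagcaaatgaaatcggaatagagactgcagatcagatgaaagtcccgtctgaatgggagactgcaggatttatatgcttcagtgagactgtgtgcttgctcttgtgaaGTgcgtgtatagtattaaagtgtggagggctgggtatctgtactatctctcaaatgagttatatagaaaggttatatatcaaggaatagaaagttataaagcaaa
No position was at hand for HAL1_SS_dup70 in the sources used here, and neither its place nor its sequence is given.

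**Figure D1:**
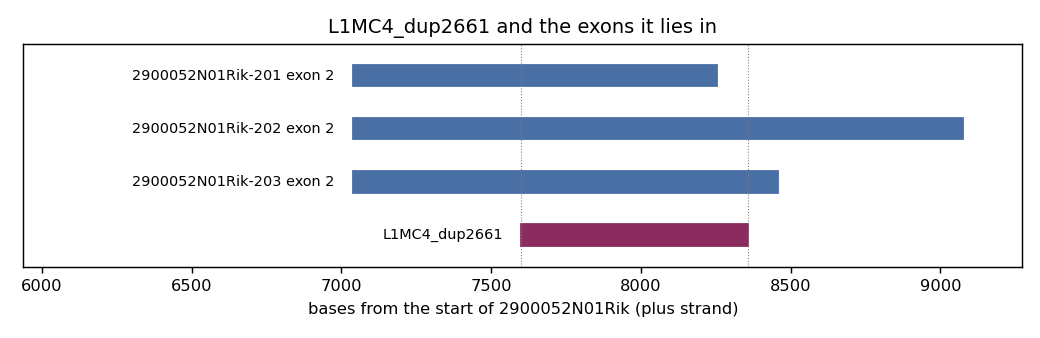
Map of L1MC4_dup2661 (lower bar) and exon 2 of the 3 transcripts of 2900052N01Rik (upper bars), in bases from the start of the gene on the plus strand. Dotted lines mark the ends of the element, which lies wholly within the exon of 2900052N01Rik-202 and 2900052N01Rik-203 and extends beyond that of 2900052N01Rik-201.

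Both copies were well covered by counts, which were not scaled to the length of an element. L1MC4_dup2661 had 866 to 2479 counts per library in cortex and 733 to 3104 in hippocampus. By summed counts it ranked 7 of 350407 elements with a count in cortex (0.479% of all L1 counts) and 6 of 270853 in hippocampus (0.589%). HAL1_SS_dup70 had 67 to 423 counts in cortex and 81 to 244 in hippocampus, and ranked 142 and 137. Counting error alone gives a coefficient of variation of about 2.74% for L1MC4_dup2661 and 9.11% for HAL1_SS_dup70 in cortex WT-nt libraries. The observed values were 24.3% and 18.3%.

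L1 counts per library totalled 186545 to 1165192 in cortex, with a median of 323416, and 178454 to 403378 in hippocampus, with a median of 259745. On the first principal component, 8 cortex libraries (1 of WT-nt, 4 of WT-t, 1 of TS-nt, 2 of TS-t) and 0 hippocampus libraries were over 3 median absolute deviations away from the centre. These are drawn as open points, and cortex results are also given without them. As a check of the genotype labels, the summed level of the 6 elements that the study lists past 90 Mb of MMU16 was 776 ± 190 CPM (counts scaled to a common library total) in WT-nt and 1228 ± 249 in TS-nt cortex (SD, n = 9 each). In hippocampus it was 867 ± 157 and 1035 ± 213 (SD, n = 8 each). The ranges overlapped in both tissues, and those elements had been listed by the study from these same samples.

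In trisomic mice, the level of L1MC4_dup2661 was higher on average than in WT mice in both tissues and under both treatments. Levels are CPM of the L1 elements that passed a filter on low counts, normalized with TMM factors within each tissue. In cortex, L1MC4_dup2661 had a lowest, median and highest level of 4765, 8632 and 9908 CPM in WT-nt and of 7918, 12370 and 14779 CPM in TS-nt mice. The means were 7797 ± 1894 and 11031 ± 2731 CPM (SD, n = 9 each), a ratio of 1.41 and an edgeR log2 fold change of 0.50 (SE 0.20). All 9 WT-nt libraries were below the TS-nt median, 5 of 9 TS-nt libraries were above every WT-nt library, and the ranges overlapped.

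In the treated mice, cortex levels of L1MC4_dup2661 were 3091, 9604 and 12870 CPM (lowest, median and highest) in WT-t and 5985, 12085 and 18906 CPM in TS-t. The means were 9017 ± 2433 (SD, n = 17) and 11355 ± 3328 CPM (SD, n = 13), a log2 fold change of 0.33 (SE 0.16). Both the lowest WT-t value (mouse 1) and the lowest and highest TS-t values (mice 2 and 8) came from libraries that stood apart. Without the 8 such libraries, the cortex means were 8176 ± 1620 in WT-nt (n = 8), 9563 ± 1822 in WT-t (n = 13), 11414 ± 2649 in TS-nt (n = 8) and 11157 ± 2160 CPM in TS-t (n = 11). The order of WT below TS groups was thus the same, with TS-t below TS-nt. On raw CPM the log2 ratio of the TS-t to the WT-t mean was 0.21, as compared with 0.33 above. Raw CPM has no TMM factors and is also relative to all L1 counts of a library, including elements that failed the filter.

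In hippocampus, L1MC4_dup2661 reached 5064, 8150 and 13058 CPM (lowest, median and highest) in WT-nt and 8963, 10501 and 14946 CPM in TS-nt mice. The means were 8191 ± 2379 and 11055 ± 2097 CPM (SD, n = 8 each), a log2 fold change of 0.43 (SE 0.17). Of the 8 WT-nt libraries, 7 were below every TS-nt library, and the exception was mouse 24, at 13058 CPM. The same mouse had the lowest WT-nt level in cortex, at 4765 CPM, in a library that stood apart. This depended on the scaling. With DESeq2's size factors the cortex level of mouse 24 was 8571 CPM, and the lowest of WT-nt was 5614 CPM, in mouse 43.

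Hippocampal levels of the treated mice were 5922, 9470 and 13203 CPM in WT-t and 6185, 13772 and 20211 CPM in TS-t. The means of L1MC4_dup2661 were 9536 ± 1767 (SD, n = 17) and 12846 ± 4025 CPM (SD, n = 13), a log2 fold change of 0.43 (SE 0.13). All 17 WT-t libraries were below the TS-t median, and 7 of 13 TS-t libraries were above every WT-t library. TS-t mice had the widest spread of the hippocampal groups for this copy, with a coefficient of variation of 31.3%. Among mice whose labels begin with 20, the log2 ratio of the TS-t to the WT-t mean fell from 0.43 to 0.23. The log2 ratio of TS-t to WT-nt fell from 0.65 to 0.43. These values rest on only 3 WT-t, 8 TS-t and 8 WT-nt hippocampus libraries.

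HAL1_SS_dup70 was also higher on average in trisomic mice of both tissues. In cortex its lowest, median and highest levels were 491, 692 and 902 CPM in WT-nt and 710, 1137 and 1351 CPM in TS-nt mice. The means were 697 ± 128 and 1059 ± 232 CPM (SD, n = 9 each), a ratio of 1.52 and a log2 fold change of 0.60 (SE 0.27). All 9 TS-nt libraries were above the WT-nt median, 6 of 9 were above every WT-nt library, and 5 of 9 WT-nt libraries were below every TS-nt library.

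In cortex of treated mice HAL1_SS_dup70 was at 239, 760 and 1066 CPM in WT-t and at 699, 1008 and 1381 CPM in TS-t (lowest, median and highest). The means were 744 ± 226 (SD, n = 17) and 1054 ± 227 CPM (SD, n = 13), a log2 fold change of 0.50 (SE 0.21). The lowest WT-t value was again that of mouse 1, whose library had counts on 3168 elements, whereas the median WT-t library had counts on 52786. Without the libraries that stood apart, the cortex means of HAL1_SS_dup70 were 708 ± 132, 743 ± 198, 1046 ± 245 and 1001 ± 202 CPM, in the order of groups used above for L1MC4_dup2661.

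In hippocampus HAL1_SS_dup70 was at 585, 922 and 1235 CPM in WT-nt and at 888, 1222 and 1486 CPM in TS-nt mice. The means were 934 ± 208 and 1184 ± 231 CPM (SD, n = 8 each), a log2 fold change of 0.34 (SE 0.17), and 3 of 8 TS-nt libraries were above every WT-nt library. In treated mice the values were 548, 801 and 1098 CPM in WT-t and 768, 1185 and 1596 CPM in TS-t, with means of 835 ± 172 (SD, n = 17) and 1168 ± 298 CPM (SD, n = 13). The log2 fold change was 0.48 (SE 0.13), and all 17 WT-t libraries were below the TS-t median.

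**Figure D2:**
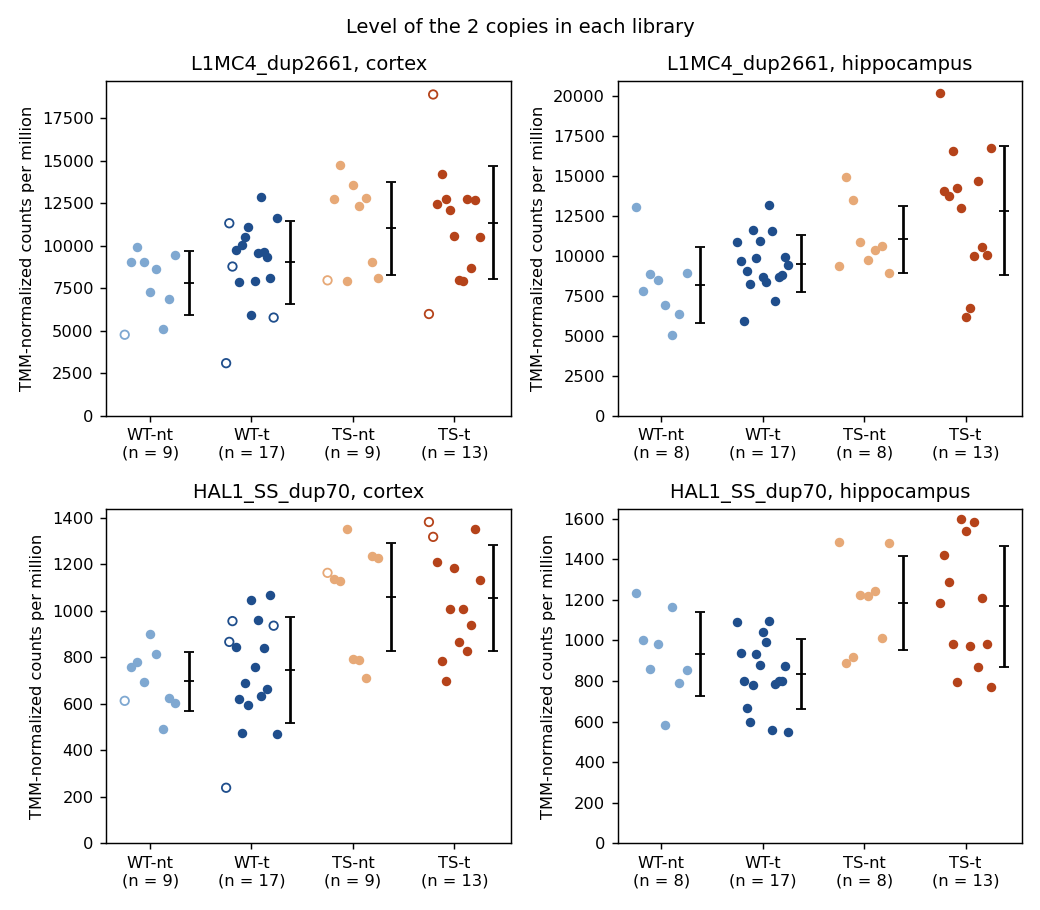
Level of L1MC4_dup2661 (top) and HAL1_SS_dup70 (bottom) in each library of cortex (left) and hippocampus (right), in TMM-normalized CPM by group. Points are libraries, open points are the 8 cortex libraries that stood apart, and bars are the mean ± SD over all libraries of the group. TS groups lie higher on average in all 4 panels and overlap with WT groups, for example between 7918 and 9908 CPM for L1MC4_dup2661 in non-treated cortex.

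In both tissues the group mean of L1MC4_dup2661 was lowest in WT-nt, followed by WT-t, TS-nt and then TS-t. Each step in that order was smaller than the pooled SD of the neighbouring groups, from 324 CPM against 3044 CPM between TS-nt and TS-t cortex to 2014 against 2586 CPM between WT-t and TS-nt cortex. For HAL1_SS_dup70 the order was WT-nt, WT-t, TS-t and TS-nt in cortex and WT-t, WT-nt, TS-t and TS-nt in hippocampus. Only the step between WT-t and TS-t in cortex, of 310 CPM, was larger than the pooled SD (226 CPM) among the neighbouring groups of HAL1_SS_dup70. Compared with WT-nt, TS-t mice had a log2 fold change of 0.54 (SE 0.19) in cortex and 0.65 (SE 0.16) in hippocampus for L1MC4_dup2661. For HAL1_SS_dup70 it was 0.60 (SE 0.25) and 0.32 (SE 0.16).

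The subfamily sums show how much of a shift each copy carries. L1MC4 has 3219 copies in the table, and L1MC4_dup2661 held 37.4% of their counts in cortex and 39.99% in hippocampus. The copy with the next most counts, L1MC4_dup5006, held 7.49% and 8.73%. The sum of L1MC4 differed by 3186 CPM between TS-nt and WT-nt cortex, and L1MC4_dup2661 by 3234 CPM, so that the sum of all other copies differed by −48.2 CPM (16187 ± 2451 in TS-nt and 16235 ± 627 in WT-nt, SD, n = 9 each). In hippocampus the sum differed by 2876 CPM, L1MC4_dup2661 by 2863 CPM and the other copies by 12.3 CPM. As a ratio of TS-nt to WT-nt, the other copies were at 0.997 in cortex and at 1.00 in hippocampus. Over cortex libraries they ranged from 13882 to 22310 CPM in TS-nt and from 15185 to 17007 CPM in WT-nt. The cortex ratio includes the highest of these libraries, that of TS-nt mouse 27, which had an L1 total of 763030. In TS-t vs. WT-t cortex, 70.4% of the difference of the sum was from this copy, and in hippocampus 97.3%. The cortex value includes the WT-t library of mouse 1, in which the other copies summed to 4012 CPM.

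As a share of its subfamily, L1MC4_dup2661 made up 32.04 ± 5.28% in WT-nt, 37.3 ± 6.00% in WT-t, 40.3 ± 8.16% in TS-nt and 40.5 ± 7.44% in TS-t cortex. In hippocampus the shares were 34.2 ± 7.89%, 37.5 ± 4.96%, 41.4 ± 4.41% and 43.9 ± 8.92%. The range over hippocampus TS-t libraries was from 24.7% to 58.3%, so single mice departed widely from the group mean.

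HAL1_SS has 33 copies, and HAL1_SS_dup70 held 96.1% of their counts in cortex and 97.8% in hippocampus. HAL1_SS_dup65, with the next most counts, had 112 counts over all cortex libraries and 49 over all hippocampus libraries, and no HAL1_SS copy other than HAL1_SS_dup70 passed the filter on low counts. The sum of HAL1_SS differed by 340 CPM between TS-nt and WT-nt cortex and HAL1_SS_dup70 by 362 CPM. In hippocampus the differences were 251 and 250 CPM. For this subfamily the sum and the copy are therefore nearly the same measurement.

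**Figure D3:**
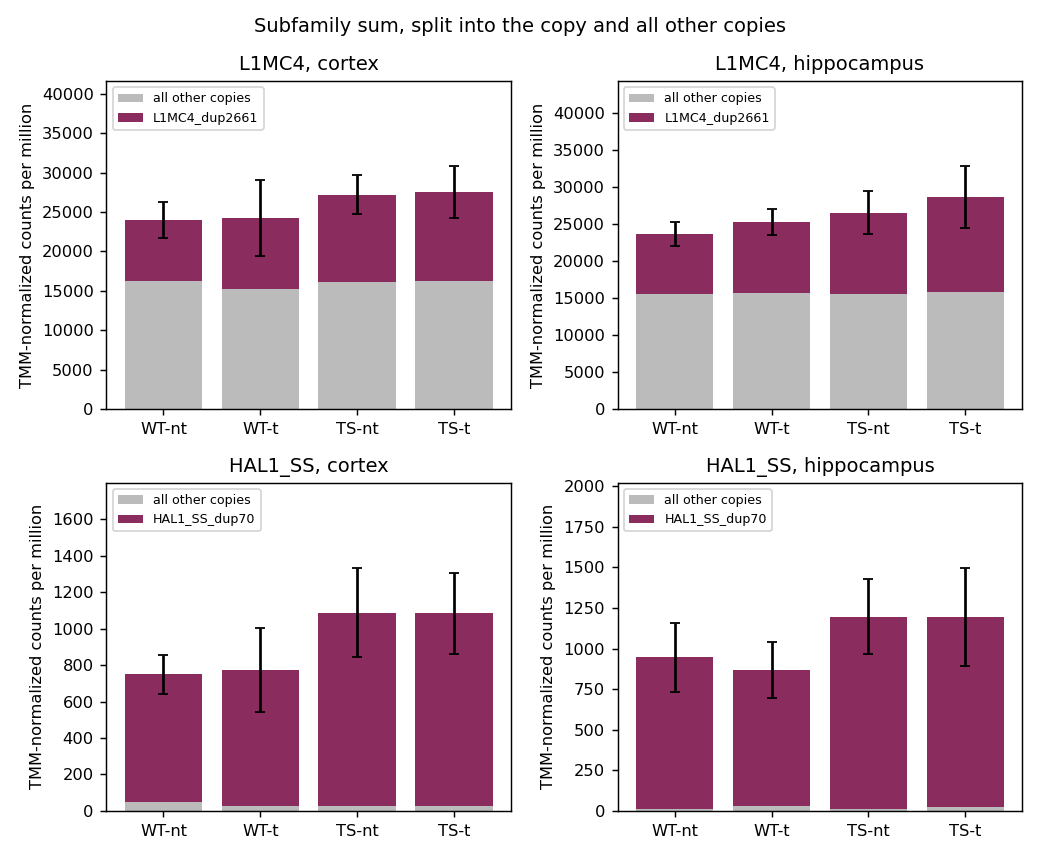
Mean level of the subfamilies L1MC4 (top) and HAL1_SS (bottom) by group in cortex (left) and hippocampus (right), in TMM-normalized CPM, split into the single copy (dark) and all other copies (grey). Error bars are the SD of the subfamily sum between libraries. The grey parts of L1MC4 lie between 15214 and 16235 CPM in cortex and between 15504 and 15832 CPM in hippocampus, and HAL1_SS consists almost wholly of HAL1_SS_dup70.

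Of the other L1MC4 copies, 40 in cortex and 38 in hippocampus passed the filter. In TS-nt vs. WT-nt, 27 of 40 were higher and 13 lower in cortex, with a median log2 fold change of 0.11, while the median of all 5416 elements tested was 0.07 and 56.1% of them were higher. In hippocampus 19 of 38 were higher, with a median of 0.0043 against −0.03 over all 4238 elements, of which 47.4% were higher. A log2 fold change at least as large as that of L1MC4_dup2661 was seen for 6 of 40 other copies in cortex and 5 of 38 in hippocampus. In TS-t vs. WT-t mice this held for 10 of 40 and 2 of 38, and in TS-t vs. WT-nt mice for 6 of 40 and 4 of 38. L1MC4_dup5006 had a log2 fold change of 0.23 (SE 0.25) in cortex and 0.02 (SE 0.18) in hippocampus, and L1MC4_dup1393 of 0.15 (SE 0.31) and 0.06 (SE 0.20). L1MC4_dup4566 was at 0.19 (SE 0.34) in cortex and L1MC4_dup3722 at −0.38 (SE 0.20) in hippocampus.

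No relation between the 2 copies over the mice of a group was detected. After centring on group means, the log2 CPM of L1MC4_dup2661 and HAL1_SS_dup70 had a Spearman's rho of −0.20 in cortex (permutation p = 0.182, Pearson's r = 0.14, p = 0.389, n = 48) and of −0.14 in hippocampus (permutation p = 0.374, r = −0.14, p = 0.405, n = 46). Without the 2 cortex libraries farthest along the x axis r was −0.17, and in hippocampus −0.11. The adjusted p-values over 12 relations were 0.243 and 0.374 for rho.

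Treatment with lamivudine was examined within each genotype with edgeR's quasi-likelihood test over all elements. No treatment effect on either copy passed the threshold (adjusted p-value <0.1). In TS-t vs. TS-nt, L1MC4_dup2661 had a log2 fold change of 0.04 (95% interval −0.33 to 0.41, edgeR adjusted p = 1.00) in cortex and of 0.22 (−0.09 to 0.52, edgeR adjusted p = 1.00) in hippocampus. In WT-t vs. WT-nt it was 0.21 (−0.14 to 0.56, edgeR adjusted p = 0.999) in cortex and 0.22 (−0.07 to 0.51, edgeR adjusted p = 1.00) in hippocampus. These intervals reach up to 0.56.

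For HAL1_SS_dup70 the log2 fold changes of TS-t vs. TS-nt were −0.01 (−0.49 to 0.48, edgeR adjusted p = 1.00) in cortex and −0.02 (−0.33 to 0.29, edgeR adjusted p = 1.00) in hippocampus. In WT-t vs. WT-nt they were 0.09 (−0.37 to 0.56, edgeR adjusted p = 0.999) in cortex and −0.16 (−0.46 to 0.13, edgeR adjusted p = 1.00) in hippocampus. Exact two-sided permutation tests of mean CPM gave adjusted p-values from 0.524 to 0.960 over the 8 comparisons of both copies.

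Of all elements tested, 0.0% were called in each of the 4 treatment comparisons by edgeR, with 49 and 86 of 5416 elements (TS and WT cortex) and 138 and 134 of 4238 (TS and WT hippocampus) at an unadjusted p-value under 0.05. DESeq2 called 1 element in TS-t vs. TS-nt hippocampus, which was neither copy, and 0 in the other 3. These counts depended on the filter on low counts. Without it, edgeR called 10433 (TS) and 56035 (WT) of 350407 elements in cortex and 17999 (TS) and 13239 (WT) of 270853 in hippocampus, and neither L1MC4_dup2661 nor HAL1_SS_dup70 was among them. All non-treated mice have labels that begin with 20, whereas treated mice have labels that begin with 18, 19 or 20, and what the first digits stand for is not stated. Within labels beginning with 20, the TS-t vs. TS-nt log2 fold change of L1MC4_dup2661 was −0.08 (SE 0.17) in cortex and −0.0015 (SE 0.16) in hippocampus. The sign differed from that over all labels in both tissues, but both values were smaller than their SE.

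**Figure D4:**
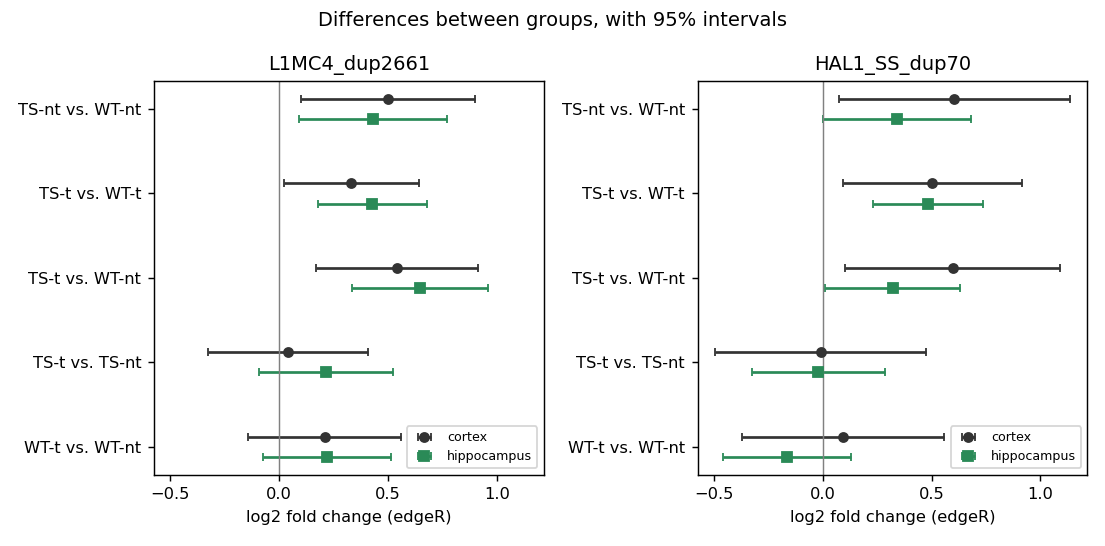
Log2 fold changes (x axis, edgeR) of L1MC4_dup2661 (left) and HAL1_SS_dup70 (right) in 5 comparisons of groups, in cortex (circles) and hippocampus (squares), with 95% intervals from the SE. The upper 3 comparisons, between genotypes, chose the copies and are shown as a description, with values from 0.32 to 0.65. The lower pair, of treatment within a genotype, lie between −0.16 and 0.22 with intervals across 0.

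The level of L1MC4_dup2661 did not differ detectably between tissues. With all 94 libraries normalized together, the log2 fold change of hippocampus vs. cortex was 0.06 (SE 0.09, edgeR adjusted p = 0.714), and 23 of 46 mice had the higher level in hippocampus. HAL1_SS_dup70 was at 0.21 (SE 0.11, edgeR adjusted p = 0.192), with the higher level in hippocampus in 31 of 46 mice. In contrast, 22.7% of 7551 elements were called between tissues. Within groups the log2 fold change of HAL1_SS_dup70 ranged from 0.13 (SE 0.25) in TS-nt to 0.40 (SE 0.25) in WT-nt mice, and that of L1MC4_dup2661 from −0.04 (SE 0.20) in TS-nt to 0.16 (SE 0.16) in TS-t mice.

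The tissue result for HAL1_SS_dup70 depended on the libraries and the scaling. Without the 8 cortex libraries that stood apart it passed the threshold (log2 fold change 0.21, edgeR adjusted p = 0.0512), and a two-sided sign-flip permutation test of the differences per mouse gave p = 0.00499 (mean log2 difference 0.22 ± 0.54, SD, n = 46). With DESeq2's size factors it was 0.04 (edgeR adjusted p = 0.793) and L1MC4_dup2661 turned to −0.07, while the median of all elements moved by −0.14. Relative to that median, HAL1_SS_dup70 was at 0.30 with TMM and 0.26 with size factors and L1MC4_dup2661 at 0.15 with both.

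Agreement between tissues by animal was then tested over the 46 mice with both libraries. After centring on group means, L1MC4_dup2661 in cortex and hippocampus had a Spearman's rho of 0.30 (permutation p = 0.0462, adjusted p = 0.111 over 12 relations) and a Pearson's r of 0.12 (permutation p = 0.449, adjusted p = 0.490). Without any one of 26 of the 46 mice the permutation p of rho was above 0.05 (0.0515 to 0.0891), and without any one of the other 20 it was between 0.00655 and 0.0487. Of the 46 mice, 30 were on the same side of their group mean in both tissues. Without mice 1 and 2, whose cortex values were farthest from the median and whose cortex libraries stood apart, r was 0.36 (permutation p = 0.0252) and rho 0.42 (permutation p = 0.00683). Without the 8 mice that had a library apart, rho was 0.59 (permutation p = 0.000240, n = 38). That exclusion was chosen after seeing the data, and p-values with mice left out were not adjusted.

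HAL1_SS_dup70 had a rho of 0.23 (permutation p = 0.135, adjusted p = 0.203) and an r of 0.12 (permutation p = 0.417, adjusted p = 0.490) between tissues, and 26 of 46 mice were on the same side. Without mouse 1 alone, the permutation p of rho was 0.0484, and without any other single mouse it was between 0.0635 and 0.241. Without mice 1 and 48, r was 0.24 (permutation p = 0.126). Without mice with a library apart, an exclusion chosen after seeing the data, rho was 0.28 (permutation p = 0.0993, n = 38). Over the 3722 elements tested in both tissues the median rho was 0.11, and 15.8% of them had a higher rho than L1MC4_dup2661 and 25.4% a higher rho than HAL1_SS_dup70. Among the 12 other elements whose median count was at least 0.5 of that of L1MC4_dup2661 in the shallower tissue, the median rho was 0.38, and 75.0% of them had a higher rho than this copy. Among the 269 such elements for HAL1_SS_dup70, the median was 0.27, and 54.3% were higher. Both copies were thus below the median of elements with at least such counts.

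Within groups no agreement passed after adjustment over the 8 relations (lowest adjusted p = 0.489 for rho and 0.690 for r, exact tests for 8 mice and permutation tests otherwise). For L1MC4_dup2661 rho was 0.14 in WT-nt (n = 8, exact p = 0.752), 0.36 in WT-t (n = 17, permutation p = 0.162), 0.33 in TS-nt (n = 8, exact p = 0.428) and 0.24 in TS-t mice (n = 13, permutation p = 0.424). For HAL1_SS_dup70 it was −0.33 (exact p = 0.428, n = 8), 0.32 (permutation p = 0.211, n = 17), 0.36 (exact p = 0.389, n = 8) and 0.35 (permutation p = 0.248, n = 13). The corresponding r values were −0.02, 0.04, 0.53 and 0.15 for L1MC4_dup2661 (lowest p = 0.172, exact test) and −0.42, 0.10, 0.18 and 0.43 for HAL1_SS_dup70 (lowest p = 0.144, permutation test). Without the 2 mice farthest in cortex, r became 0.51, 0.44, 0.59 and 0.60 for L1MC4_dup2661 and −0.48, 0.41, 0.10 and 0.29 for HAL1_SS_dup70.

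By the beginning of the label, rho of L1MC4_dup2661 was 0.26 for 18 (n = 6 of 7 mice, as the only TS-t mouse could not be centred), 0.52 for 19 (n = 12) and 0.28 for 20 (n = 27). For HAL1_SS_dup70 these were −0.09, 0.83 and 0.17, and the differences between label groups were not tested. Within the 12 mice of label 19, all of them treated, the unadjusted permutation p of HAL1_SS_dup70 was 0.00780. For labels 18 and 20 it was 0.919 (exact test) and 0.415. For L1MC4_dup2661 it was 0.658 (exact test), 0.104 and 0.166 for labels 18, 19 and 20.

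**Figure D5:**
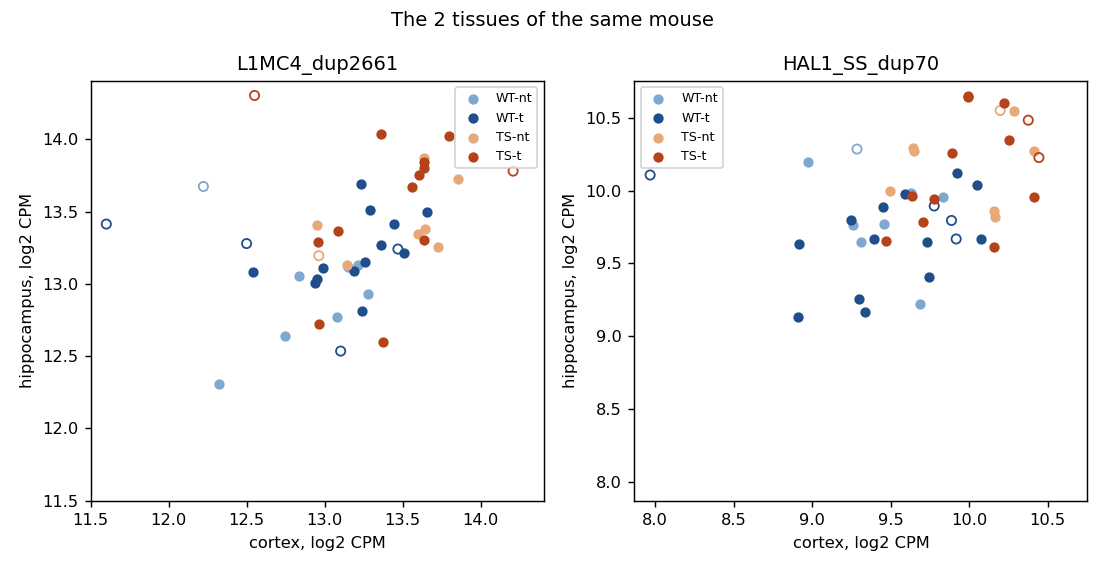
Log2 CPM in cortex (x axis) and hippocampus (y axis) of the same mouse for L1MC4_dup2661 (left) and HAL1_SS_dup70 (right), for the 46 mice with both libraries. Tissues were normalized separately. Colours are groups and open points are mice whose cortex library stood apart. Several open points of L1MC4_dup2661 lie at the far left, among them mice 1, 2 and 24.

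Some measures of the library moved with the copies, not in every tissue, and are given beside these results. Centred on group means, L1MC4_dup2661 in cortex had an r of 0.56 with the first principal component (permutation p = 0.00219, adjusted p = 0.00876, rho = 0.28, permutation p = 0.0315). It was 0.17 without the 2 farthest libraries, so that it rested on them. With the cortex L1 total, r was −0.37 (permutation p = 0.00569, adjusted p = 0.0171) and rho −0.22 (permutation p = 0.120), with an r of −0.26 without the 2 farthest libraries. In hippocampus L1MC4_dup2661 had a rho of 0.39 with the first component (permutation p = 0.00899, adjusted p = 0.0360, r = 0.34, permutation p = 0.0234, r = 0.28 without the 2 farthest libraries). HAL1_SS_dup70 in hippocampus had a rho of −0.66 with the first component (permutation p = 1e-05, the smallest that the draws can give, adjusted p = 0.00012, r = −0.62, permutation p = 3e-05). Its rho with the L1 total was −0.52 (permutation p = 0.000290, adjusted p = 0.00174, r = −0.46, permutation p = 0.00122). Without the 2 farthest libraries these r values were −0.70 and −0.57. CPM has the library total as its denominator, so the latter relation shares a quantity. For the remaining pairs no relation was detected. L1MC4_dup2661 in hippocampus had an r of 0.16 with the L1 total (permutation p = 0.259). HAL1_SS_dup70 in cortex had an r of −0.08 with the L1 total (permutation p = 0.527, rho = −0.25, permutation p = 0.0828). With the first component its r was 0.33 (permutation p = 0.0598, rho = −0.16, permutation p = 0.273), and −0.32 without the 2 farthest libraries. The hippocampal medians of the L1 total were 265232 and 259142 in WT-nt and WT-t mice and 263184 and 260220 in TS-nt and TS-t mice. The part of these measures in the levels of HAL1_SS_dup70 was not tested.

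The elements most like each copy were found by Spearman's rho of group-centred log2 CPM over the libraries of a tissue. For L1MC4_dup2661 in cortex (48 libraries) these were L1_Mus2_dup9975 (0.73), Lx3_Mus_dup10116 (0.70) and Lx3B_dup5374 (0.67), and in hippocampus (46 libraries) Lx10_dup2475 (0.72), Lx7_dup29483 (0.62) and L1ME3Cz_dup549 (0.60). Among the 20 highest in both tissues were L1_Mus2_dup9975, Lx10_dup2475, L1MA6_dup5836, Lx7_dup29483, Lx10_dup8120 and Lx_dup18222. Lx10_dup2475 reached 0.67 in cortex, where it ranked 4 of 5415 elements. L1ME3Cz_dup549, in contrast, ranked 2489 in cortex, at 0.12. Lx3_Mus_dup10116 and Lx3B_dup5374 ranked 1028 and 143 of 4237 in hippocampus, at 0.16 and 0.37.

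For HAL1_SS_dup70 the most like elements in cortex were L1ME3C_dup40 (0.57), L1M2_dup5233 (0.55) and Lx3B_dup2886 (0.54), and in hippocampus L1Md_F2_dup28824 (0.62), Lx8_dup15564 (0.61) and L1Md_F2_dup27805 (0.60). L1Md_F2_dup28824 and L1Md_F2_dup28825 were among the 20 highest in both tissues, at 0.49 and 0.50 in cortex. The others were not. L1ME3C_dup40, L1M2_dup5233 and Lx3B_dup2886 ranked 277, 647 and 1056 of 4237 in hippocampus, at 0.31, 0.21 and 0.13. Lx8_dup15564 and L1Md_F2_dup27805 ranked 2505 and 1189 of 5415 in cortex, at 0.03 and 0.15. Median counts were only 8 and 7 for L1M2_dup5233 and Lx3B_dup2886 in cortex and 4 for L1Md_F2_dup27805 in hippocampus. All rho values come from the same libraries and share their depth.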

How the data were processed

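Total RNA of cortex and hippocampus was sequenced by the authors as ribosomal RNA-depleted stranded libraries. Per the labels and methods they trimmed reads with Trimmomatic 0.38, aligned them to GRCm38 with HISAT2 2.1.0 and counted them per L1 element with Telescope, and the deposited values are raw counts without normalization. Telescope assigns reads with several alignments to a best copy, so copies of near-identical sequence may exchange reads. All 94 columns were used.

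Here, elements were filtered in each tissue with edgeR's filterByExpr (minimum count of 10, minimum total count of 15), normalized with TMM and tested with edgeR 4.0.16 (quasi-likelihood, robust, all 4 groups in the model, R 4.3.3), with Benjamini-Hochberg adjustment over all elements and a threshold of 0.1. The filter kept 5416 elements in cortex and 4238 in hippocampus, and both copies passed in both. Log2 CPM used a prior count of 2. Correlations and means were tested by permutation, exactly where feasible and with 100000 draws otherwise (scipy 1.17.1). Alternatives included DESeq2 1.42.0. The fits were also run on simulated counts. The spread set between those was smaller than the common spread estimated here (coefficient of variation 0.74 in cortex and 0.62 in hippocampus). That run therefore cannot show how the tests perform at the spread of these data. Mice were paired across tissues by the animal label, which is the same in both tissues, and the main model had no block.

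The elements named were both copies, the 3 other copies of each subfamily with the most counts per tissue, and the 3 elements most like each copy per tissue with those among the 20 highest in both. Members and lists were chosen with earlier results of these data known. Each library was taken as the mouse its label names. The methods also mention pooling of samples per condition before RNA quality was measured, in which case n and SD would be those of pools. No libraries held identical counts.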

Additional observations from a re-analysis of the deposited data

How the results depend on the processing

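All 12 genotype differences of the copies (log2 ratios of mean CPM) kept their direction in the 322 alternative values. The copies were chosen on these differences, so the kept direction is no independent support. The alternatives used other scalings, left out libraries that stood apart or each library in turn, or kept only labels beginning with 20. Most of them left out a single library. Some left a difference unchanged, since all non-treated mice have labels beginning with 20 and 0 hippocampus libraries stood apart. Each value moved by less than the SD between single libraries, which is not the uncertainty of a group difference. For L1MC4_dup2661, TS-t vs. WT-t fell from 0.33 to 0.21 with raw CPM in cortex. In hippocampus it fell from 0.43 to 0.23 within labels beginning with 20, and TS-t vs. WT-nt fell from 0.65 to 0.43. Both hippocampal moves were larger than the SE of the difference (0.13 and 0.16). They rest on 3 WT-t, 8 TS-t and 8 WT-nt libraries. Without each library the genotype differences ranged, for L1MC4_dup2661, in cortex from 0.43 to 0.55 (TS-nt vs. WT-nt), 0.46 to 0.60 (TS-t vs. WT-nt) and 0.25 to 0.39 (TS-t vs. WT-t) and in hippocampus from 0.36 to 0.56, 0.57 to 0.78 and 0.36 to 0.49. For HAL1_SS_dup70 they ranged from 0.55 to 0.66, 0.54 to 0.65 and 0.44 to 0.54 and from 0.27 to 0.41, 0.25 to 0.39 and 0.44 to 0.53. No treatment effect on either copy passed the threshold under any of the alternatives, although the count over all elements, 0 with the filter, was 10433 (TS) and 56035 (WT) in cortex and 17999 and 13239 in hippocampus without it. Of the treatment effects on the copies, 12 values changed sign, each of them smaller than its SE, and the cause was not tested. In TS-t vs. TS-nt cortex, L1MC4_dup2661 was −0.056 without a filter, −0.079 within labels beginning with 20, −0.029 without libraries that stood apart and −0.055 without its highest library, and in hippocampus −0.0015 within labels beginning with 20. HAL1_SS_dup70 was 0.054 with DESeq2's size factors, 0.024 with only the compared groups and 0.051 by DESeq2 in TS-t vs. TS-nt cortex, −0.0296 with size factors and −0.0303 by DESeq2 in WT-t vs. WT-nt cortex, and 0.0140 without a filter and 0.0138 within labels beginning with 20 in TS-t vs. TS-nt hippocampus. The tissue difference of L1MC4_dup2661 was −0.0688 with size factors, −0.0687 by DESeq2 and −0.0014 without libraries apart, and that of HAL1_SS_dup70 was called at 0.21 without libraries apart and at 0.22 by sign-flip permutation. With the mouse as a replicate block, the tissue differences were 0.07 and 0.20 and changed no call. Over all mice, rho between tissues of L1MC4_dup2661 had an unadjusted permutation p of 0.0462 and an adjusted p of 0.111 over 12 relations. Unadjusted permutation p-values are set against 0.05 in what follows. For L1MC4_dup2661 they were above it for Pearson's r (0.12) and for rho in each label group (0.26, 0.52 and 0.28). Its rho was between 0.26 and 0.41 without each mouse, with p above 0.05 without any one of 26 of the 46 mice. For HAL1_SS_dup70 rho was −0.086 and 0.83 within labels 18 and 19. Without each mouse it was between 0.18 and 0.30, with a permutation p under 0.05 only without mouse 1 (p = 0.0484). Leaving out mice with a library apart was chosen after seeing the data. Over copies that passed the filter, L1MC4_dup2661 held 56.4% of L1MC4 in cortex and 54.9% in hippocampus. HAL1_SS_dup70 has the fewer counts and the larger counting error. Its SE in hippocampus was nevertheless like that of L1MC4_dup2661 (0.17 for both in TS-nt vs. WT-nt).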
